A study of Mus musculus with 6 samples.

Results

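The unfolded protein response genes described here are 10 genes named by symbol, of 21829 genes in the deposited table. They are 5 that fold proteins in the endoplasmic reticulum or help to (Hspa5, Hsp90b1, Calr, Pdia4 and Dnajb9), 3 of the branch run by the transcription factors ATF4 and CHOP (Atf4, Ddit3 and Trib3), the transcription factor gene Xbp1 and the degradation gene Herpud1. All 10 were expressed in epididymal fat above the filter of a mean of 1 FPKM, and none passed the adjusted threshold between the KO-labelled libraries and WT. Their means leaned one way: 9 of 10 were lower in the KO-labelled libraries, as were 59.2% of all tested genes, and Herpud1 alone was higher, though with quantile normalization Hspa5 (0.13) and Calr (0.0040) took a positive sign and 7 of 10 were lower, as were 7 with a covariate for ciliated epithelium markers. In the main setting the folding genes and the ATF4 branch did not stand apart by more than the spread between libraries (0.1199 against a pooled SD of 0.1222). In some other settings the difference exceeded that spread, such as quantile normalization (0.28 against 0.21). Without WT 3 it was 0.029 against 0.056, and it took the other sign with sample weights (-0.017) and with that covariate (-0.0047).

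The endoplasmic reticulum folds secreted and membrane proteins, and unfolded protein that builds up there is sensed by IRE1, PERK and ATF6. IRE1 splices Xbp1 mRNA, and spliced XBP1 and cleaved ATF6 switch on chaperone and degradation genes, while PERK phosphorylates eIF2alpha, which slows translation in general and favours that of Atf4 mRNA. ATF4 then drives genes of amino acid supply and Ddit3, which encodes CHOP. In fat, this response is known for serving a tissue that secretes adipokines, and its activity has been tied to obesity and insulin resistance.

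Transcripts of epididymal white adipose tissue, the visceral fat beside the testis, were measured in 3 libraries whose label is ZFP251 KO and 3 whose label is wild type (WT). The mice were C57BL/6J males of 20 weeks, fed a normal diet, and the WT animals were littermates of the others. The labels used here do not give the allele, whether the deletion reached all tissues, or whether each library came from 1 mouse, and the p-values thus rest on variation among libraries, some of which may be technical. Values are FPKM (fragments scaled by transcript length and library total), and every difference below is KO minus WT on the scale log2(FPKM + 1), with limma's p over 12539 tested genes.

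The targeted gene went against the labels. Zfp251 had 6.48, 5.86 and 6.48 FPKM in the KO-labelled libraries and 3.73, 3.56 and 2.95 FPKM in WT, an exact permutation p of 0.1, the smallest that 3 against 3 libraries can give. Directions in what follows are those of the labels, not of a verified knockout. Both WT 1 and WT 3 stood apart from WT 2. WT 1 held transcripts of ciliated epithelium, as the KO-labelled libraries did. WT 3 had the highest FPKM sum, 637902 against 426966 to 472120 in the other 5, and its values were raised for short transcripts, by a median of 0.55 on the log2 scale for the 560 tested genes of up to 1000 nt against -0.17 to -0.03 in the other libraries. Among all tested genes 0 (0%) passed the adjusted threshold of 0.05, and 1700 (13.6%) had an unadjusted p under 0.05, 555 (4.43%) lower and 1145 (9.13%) higher in the KO-labelled libraries.

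Promoters are shown first because the response is known to act through short elements in them, and those printed are of the 4 genes that held a form of the ER stress response element. RefSeq promoters of build GRCm38.p6, from 250 bases before to 50 after the annotated start of transcription, matched all 10 genes. They were searched on both strands for 4 motifs: the ER stress response element, which is CCAAT and CCACG with any 9 bases between them, its second form, ATTGG and CCACG with any 1 base between them, the core of the unfolded protein response element, TGACGTG, and the C/EBP-ATF composite element of ATF4 target genes, TGATGNAA. The first was found in Hspa5, Hsp90b1 and Calr, and in 0.119% of all 32851 promoters. Hsp90b1 held it 2 times. Herpud1 held the second form, found in 0.0365% of all promoters, and the composite element, found in 3.97%. Hspa5 also held the core element, found in 2.01%, and Trib3 the composite element. Pdia4, Dnajb9, Atf4, Ddit3 and Xbp1 held none of these letters in this window, and no matches overlapped. A match is a string of letters and not a measured binding site. The motifs and the 10 genes were both chosen as known parts of this response, so the shares describe rarity and do not test enrichment. The 250 bases before the start are given 5′ to 3′ on the gene's strand, for Hspa5 (chr2:34771840-34772089, plus strand), Hsp90b1 (chr10:86705445-86705694, minus strand), Calr (chr8:84846932-84847181, minus strand) and Herpud1 (chr8:94386179-94386428, plus strand), with the fixed letters of the matches in capitals.
Hspa5: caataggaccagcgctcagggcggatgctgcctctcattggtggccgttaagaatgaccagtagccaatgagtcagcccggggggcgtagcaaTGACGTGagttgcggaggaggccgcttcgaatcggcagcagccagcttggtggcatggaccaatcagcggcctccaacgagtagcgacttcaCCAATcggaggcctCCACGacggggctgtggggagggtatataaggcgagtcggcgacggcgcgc
Hsp90b1: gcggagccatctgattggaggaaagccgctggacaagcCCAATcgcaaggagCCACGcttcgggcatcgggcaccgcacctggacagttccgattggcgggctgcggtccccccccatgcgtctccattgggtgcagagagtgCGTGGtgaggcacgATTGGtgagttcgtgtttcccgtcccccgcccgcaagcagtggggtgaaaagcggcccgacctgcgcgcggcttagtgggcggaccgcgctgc
Calr: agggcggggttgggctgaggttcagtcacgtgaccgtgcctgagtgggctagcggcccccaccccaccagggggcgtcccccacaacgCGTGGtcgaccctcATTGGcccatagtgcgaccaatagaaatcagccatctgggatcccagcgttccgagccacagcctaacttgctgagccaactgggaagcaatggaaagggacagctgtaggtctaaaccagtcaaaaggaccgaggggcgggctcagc
Herpud1: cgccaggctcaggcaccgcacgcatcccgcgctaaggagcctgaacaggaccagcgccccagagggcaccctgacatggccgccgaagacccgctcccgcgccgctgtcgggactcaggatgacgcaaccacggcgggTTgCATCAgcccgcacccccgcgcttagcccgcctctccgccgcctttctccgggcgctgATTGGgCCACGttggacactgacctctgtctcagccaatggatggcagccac

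**Figure D1:**
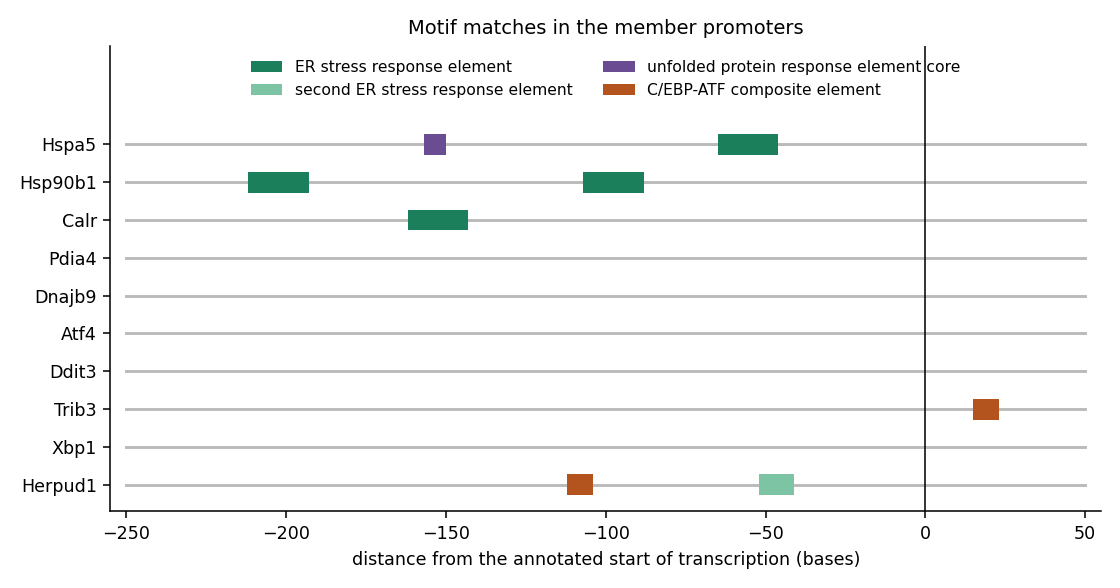
Motif matches on either strand in the promoters of the 10 genes, by distance in bases from the annotated start of transcription (x axis), coloured by motif. The ER stress response element lies in 3 folding genes, at -65 to -47 in Hspa5, -162 to -144 in Calr, and -212 to -194 and -107 to -89 in Hsp90b1.

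Of the folding genes, Hspa5 was abundant and varied least between libraries. Hspa5 encodes BiP, the main chaperone of the compartment and a sensor partner of the stress receptors. Its FPKM were 162, 165.8 and 155.9 in KO 1, 2 and 3, and 175.1, 167.1 and 188 in WT 1, 2 and 3. All KO-labelled libraries lay below all WT libraries, but KO 2 and WT 2 were nearly level. The difference of -0.13 (SE 0.11, limma adjusted p = 0.627) was small, and the ratio of means was 0.912. The spread of Hspa5 within the groups was an SD of 0.068 on the log2 scale, at the 5.14th percentile of tested genes.

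Hsp90b1 encodes GRP94, the HSP90 of the endoplasmic reticulum. Its FPKM were 125.4, 124.9 and 128.9 in the KO-labelled libraries and 139, 150.1 and 183.7 in WT. The KO values lay in a narrow band below every WT value, and the WT values were spread, with WT 3 highest. The mean was 126 ± 2.19 against 158 ± 23.3 FPKM (SD, n = 3 each), a difference of -0.31 (SE 0.14, limma adjusted p = 0.394). Without WT 3 it was -0.19.

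Calr encodes calreticulin, which holds glycoproteins during folding and binds calcium. It had 157.2, 157.5 and 200.4 FPKM in the KO-labelled libraries against 202, 193.4 and 215.8 FPKM in WT. KO 1 and KO 2 were below all WT libraries, while KO 3 lay among them, so the groups overlapped (difference -0.25, SE 0.14, limma adjusted p = 0.484). The disulfide isomerase gene Pdia4 had 42.6, 44.3 and 45.5 FPKM against 44.8, 49.9 and 54.4 FPKM in WT, with KO 3 just above WT 1 (-0.16, limma adjusted p = 0.545). Dnajb9 encodes ERdj4, a co-chaperone of BiP. Its 26.7, 26.4 and 29.7 FPKM overlapped the 30.4, 34.7 and 26.7 FPKM of WT, where WT 3 was as low as KO 1 (-0.14, limma adjusted p = 0.639).

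In the ATF4 branch the transcription factor genes were lower in every KO-labelled library and their target Trib3 was not. Atf4 (chromosome 15, 80255184 to 80257541, plus strand, GRCm38) had 74.8, 77.6 and 84.1 FPKM in the KO-labelled libraries and 85.7, 100.6 and 101.7 FPKM in WT. KO 3 and WT 1 were close to each other and the groups did not overlap. The means were 78.8 ± 4.78 against 96 ± 8.94 FPKM (SD, n = 3 each), with a difference of -0.28 (SE 0.12, limma unadjusted p = 0.0543, adjusted p = 0.379). Since ATF4 is made largely under translational control, its mRNA level does not give the level of the protein.

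Ddit3, the CHOP gene (chromosome 10, 127290774 to 127296288, plus strand, GRCm38), had 11, 10.1 and 12.4 FPKM in the KO-labelled libraries against 12.8, 14 and 30.2 FPKM in WT. A single library set the WT mean: WT 3 had more than any other, and KO 3, WT 1 and WT 2 lay close together. The difference was -0.62 (SE 0.31, limma adjusted p = 0.437), and -0.24 without WT 3. The longest annotated transcript of Ddit3 has 969 nt, the shortest among the 10 genes, and after a correction for transcript length the difference was -0.38. WT 3 was raised by 1.05 on the log2 scale for Ddit3, against the median of 0.55 for tested genes of up to 1000 nt.

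Trib3 encodes a pseudokinase that binds AKT and ATF4 and is itself an ATF4 and CHOP target. It was the lowest of the 10, with 4.79, 4.28 and 3.52 FPKM in the KO-labelled libraries against 4.43, 4.64 and 4.11 FPKM in WT. KO 1 was highest of all 6 libraries and KO 3 lowest. The difference was -0.06 (SE 0.13, limma adjusted p = 0.85) and took the other sign without KO 3, at 0.04 (limma adjusted p = 0.927).

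Xbp1 (chromosome 11, 5520659 to 5525893, plus strand, GRCm38) was the only one of the 10 with an unadjusted p under 0.05, a share below the 13.6% of all tested genes. It had 165.9, 128.1 and 177.7 FPKM in the KO-labelled libraries against 224.5, 191.7 and 225.6 FPKM in WT. Every KO-labelled library lay below every WT library, with KO 2 farthest down. The means were 157 ± 25.9 against 214 ± 19.3 FPKM (SD, n = 3 each), a ratio of 0.735 and a difference of -0.45 (SE 0.16, limma unadjusted p = 0.029, adjusted p = 0.306). The unadjusted p was 0.0565 without KO 1, 0.117 without KO 2 and 0.0819 without WT 1. With quantile normalization the difference was -0.19 (limma unadjusted p = 0.292), and Herpud1 was there the only one of the 10 with an unadjusted p under 0.05 (0.43, limma unadjusted p = 0.0383, adjusted p = 0.317). FPKM per gene does not separate spliced from unspliced Xbp1 mRNA, so IRE1 activity cannot be read from it.

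The ratio of Xbp1 to Hspa5 within a library, chosen after the values were seen, does not depend on how the library was scaled. It was 1.02, 0.773 and 1.14 in the KO-labelled libraries and 1.28, 1.15 and 1.2 in WT. The groups did not overlap, though KO 3 and WT 2 were nearly level.

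Herpud1, whose protein brings degradation complexes together at the membrane of the endoplasmic reticulum, ran the other way. It had 53.8, 58.3 and 42.4 FPKM in the KO-labelled libraries against 33.9, 48.8 and 44.1 FPKM in WT. KO 1 and KO 2 were above all WT libraries, KO 3 was below WT 2 and WT 3, and WT 1 was lowest. The difference was 0.28 (SE 0.18, limma adjusted p = 0.521), and 0.14 without WT 1. Its ratio to Xbp1, chosen after the values were seen, was 0.324, 0.455 and 0.239 in the KO-labelled libraries against 0.151, 0.254 and 0.195 in WT. The WT 2 ratio lay above that of KO 3, so the groups overlapped there too.

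**Figure D2:**
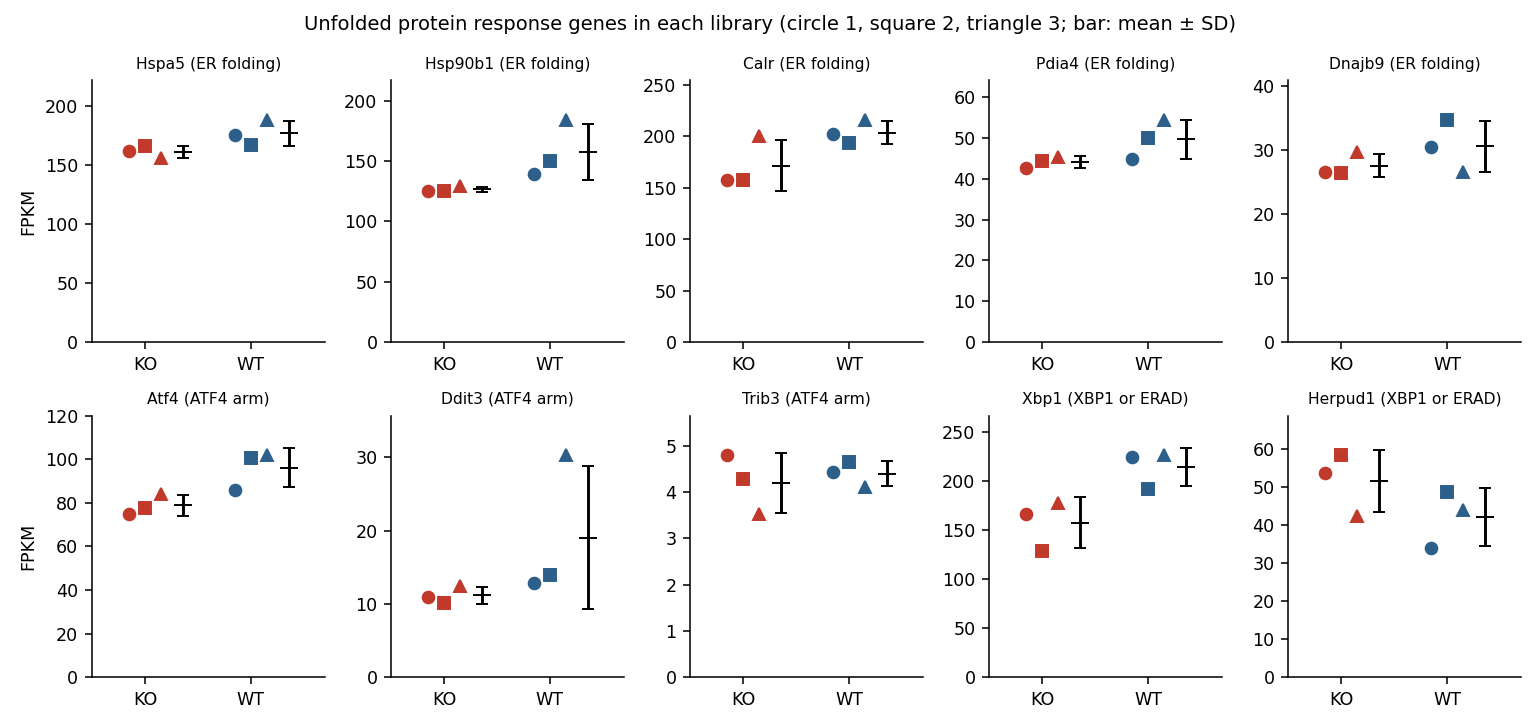
FPKM (y axis, from 0) of the 10 genes in the KO-labelled libraries (red, left) and WT (blue, right), with the mean and SD of each group in black (n = 3). Hspa5, Hsp90b1, Atf4, Ddit3 and Xbp1 have every red point below every blue one, and in Ddit3 the WT 3 value of 30.2 FPKM lies far above the rest.

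The groups did not overlap in 5 of the 10 genes, each lower there, an order that 12.2% of all tested genes had. The 5 genes were Hspa5, Hsp90b1, Atf4, Ddit3 and Xbp1, and the exact permutation test gave p = 0.1 for each, the smallest possible. That count depended on the scaling. It was 4 with median-ratio scaling, 2 with quantile normalization and 2 after the correction for transcript length. It was 8 without KO 3, where fewer libraries make non-overlap easier. The share of all tested genes was taken in the main setting only, so these counts have no background beside them. None of the 10 genes was higher in every KO-labelled library, where 10.1% of all tested genes were.

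**Figure D3:**
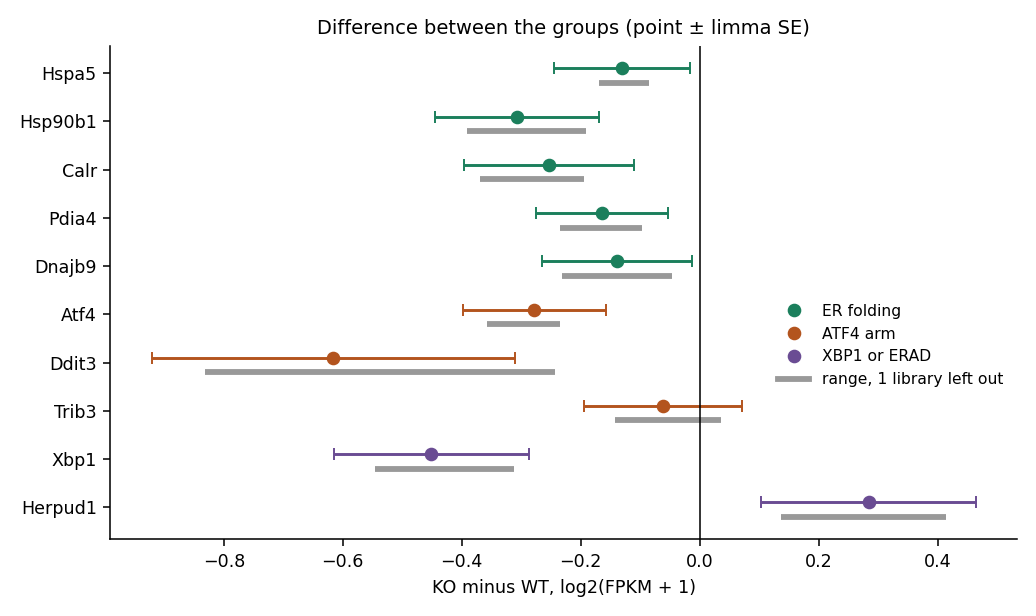
KO minus WT difference in log2(FPKM + 1) (x axis) for the 10 genes, coloured by role, with limma's standard error, and in grey the range when each library was left out in turn. All points but Herpud1 lie left of 0, with Ddit3 at -0.62 and Xbp1 at -0.45 farthest out, and the grey bar of Ddit3 runs from -0.83 to -0.24.

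The folding genes and the ATF4 branch were set against each other within each library, as the mean log2(FPKM + 1) of the 5 folding genes minus that of Atf4, Ddit3 and Trib3. The median KO minus WT difference was -0.16 over the 5 folding genes and -0.28 over the 3 ATF4 branch genes, beside -0.05 over all tested genes. Within a library the folding genes exceeded the ATF4 branch by 2.25, 2.33 and 2.38 in KO 1, KO 2 and KO 3, against 2.33, 2.26 and 2.02 in WT 1, WT 2 and WT 3. WT 3 stood apart and the other 5 libraries lay together, so the groups overlapped. The group difference was 0.12, with a pooled SD of 0.12 between libraries, and 0.029 without WT 3. With quantile normalization it was 0.28, with a pooled SD of 0.21. No p is given, since the genes were chosen with results of these data known.

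**Figure D4:**
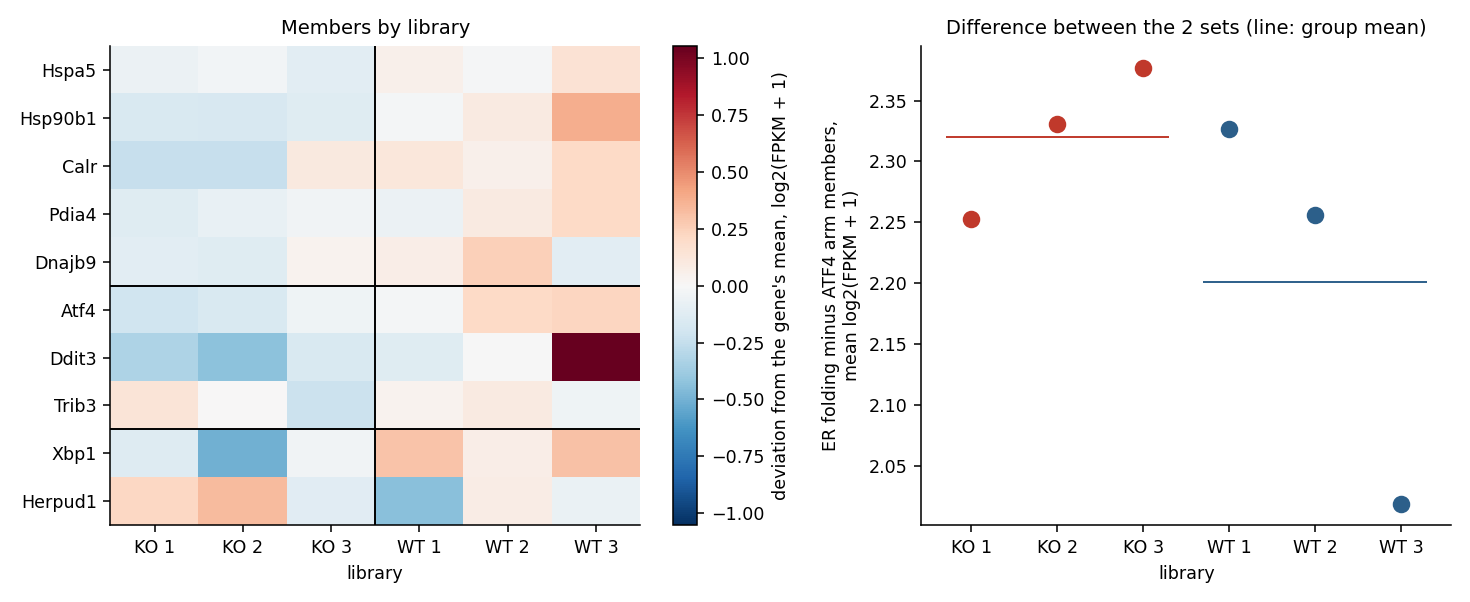
Left, deviation of each gene from its mean over the 6 libraries in log2(FPKM + 1), with black lines between the folding genes, the ATF4 branch, and Xbp1 with Herpud1. Right, mean log2(FPKM + 1) of the folding genes minus that of the ATF4 branch in each library (y axis, not from 0), where WT 3 at 2.02 lies below the other libraries, which run from 2.25 to 2.38.

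By level per length, Calr, Xbp1 and Hspa5 led, with means over the 6 libraries of 188, 186 and 169 FPKM. Their ranges overlapped, and Calr was above Xbp1 in 3 of 6 libraries. Hsp90b1 followed at 142 FPKM, below Hspa5 in 6 of 6 libraries. Atf4 came next at 87.4 FPKM, with a range apart from those of its neighbours. Pdia4 and Herpud1 were level at 46.9 FPKM each and could not be ordered. Dnajb9 at 29.1 and Ddit3 at 15.1 FPKM overlapped because of WT 3, and Trib3 at 4.29 FPKM was apart from all others. The 4 genes at the top lay between the 96.1st and the 97.8th percentile of tested genes in every library, and Trib3 between the 19.2nd and the 26.6th.

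Ddit3 was the most variable of the 10, with a highest value 2.98 times its lowest, which rested on WT 3: without it the ratio was 1.38, below those of Xbp1 (1.75) and Herpud1 (1.72). Hspa5 was the least variable, at 1.21 times, and 1.12 times without WT 3. Over all 6 libraries Xbp1 and Herpud1 came next to Ddit3, at 1.76 and 1.72 times. The ratio of Pdia4 to Hspa5 was close to constant, from 0.263 to 0.292 in the KO-labelled libraries and from 0.256 to 0.299 in WT. The ratio of Ddit3 to Atf4 was 0.131 to 0.148 in the KO-labelled libraries, and 0.139 and 0.15 in WT 2 and WT 1, against 0.297 in WT 3.

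Other genes of the pathway were read from lists chosen with earlier results of these data known, and none of their genes passed limma's adjusted threshold. Over all tested genes 59.2% had lower means in the KO-labelled libraries, 4.43% had an unadjusted p under 0.05 and were lower, and 12.2% were lower in every KO-labelled library. Among 17 other folding genes 13 had lower means in the KO-labelled libraries (median -0.12) and 0 had an unadjusted p under 0.05. In 6 of the 17 the groups did not overlap, all lower (12.2% of all tested genes). Sdf2l1, a partner of BiP co-chaperones, had 9.88, 10 and 11.1 FPKM against 12.1, 14 and 11.7 FPKM in WT (difference -0.26, limma adjusted p = 0.38). Sil1, the nucleotide exchange factor of BiP, had a difference of -0.30 and the oxidase gene Ero1lb one of -0.22. Of 16 genes of entry into the endoplasmic reticulum 14 had lower means (median -0.17), with 0 at an unadjusted p under 0.05. Ssr2, of the translocon-associated complex, had -0.32, and the signal recognition particle receptor genes Srpr and Srprb had -0.16 each. With quantile normalization the counts with lower means were 8 of 17 and 11 of 16. Without WT 2 the genes at an unadjusted p under 0.05 and lower were 2 of 17 and 3 of 16, beside 1051 of all 12539 tested genes. In the main setting 555 of all tested genes were.

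Degradation genes other than Herpud1 had lower means in 10 of 13 tested (median -0.10), beside 59.2% of all tested genes, and 2 of them had an unadjusted p under 0.05, beside 4.43%. Both were derlins, membrane proteins of the export channel. Derl1 had 83.6, 87.7 and 98.7 FPKM in the KO-labelled libraries against 116.6, 118.6 and 139.8 FPKM in WT. The groups were clearly separate, with a difference of -0.47 (SE 0.13, limma unadjusted p = 0.00872, adjusted p = 0.223). Derl2 had a difference of -0.39 (limma adjusted p = 0.347) and Edem1, which helps mark glycoproteins for disposal, one of -0.23 (limma adjusted p = 0.46). Derl3 was below the filter, with 0.541, 0.612 and 0.468 FPKM against 1.12, 1.89 and 0.962 FPKM in WT. The count of 2 was 1 without KO 1, KO 2 or WT 1, 3 without WT 2 and 5 with sample weights. Of all 12539 tested genes, 175, 188, 659, 1051 and 1981 were lower at that p in those settings, against 555 in the main one. The count of 2 was also 1 with the replicate block, 1 after the length correction and 0 with the multiciliated covariate. In those settings 566, 512 and 97 of all tested genes were lower at that p. The count with lower means was 7 of 13 with quantile normalization.

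The targets of ATF4 and CHOP were the longest list. Of 22 tested, 18 had lower means in the KO-labelled libraries (median -0.16), beside 59.2% of all tested genes. At an unadjusted p under 0.05 there were 6 lower and 1 higher, beside 4.43% and 9.13% of all tested genes. Ppp1r15a, known as GADD34, which brings a phosphatase to eIF2alpha, had 8.45, 9.24 and 6.98 FPKM against 14.8, 14.1 and 11.7 FPKM in WT. No KO-labelled library reached the lowest WT library (difference -0.66, SE 0.14, limma unadjusted p = 0.00249, adjusted p = 0.223). The stress-induced chromatin protein gene Nupr1 had -0.52 (limma adjusted p = 0.277) and the translation inhibitor gene Eif4ebp1 -0.68 (limma adjusted p = 0.328). The 1 higher gene, Shmt2, of mitochondrial folate metabolism and named after its value was seen, had 0.30 (limma unadjusted p = 0.0454, adjusted p = 0.355). The largest difference of the list was also on the higher side, 0.94 for Ddit4 (limma unadjusted p = 0.119). Chac1 (0.35) and Sesn2 (0.10) had higher means as well. These genes too were named after their values were seen. The count of 6 was 1 without KO 1, 1 without KO 2, 3 with no filter on low values, 1 with the multiciliated covariate and 9 with sample weights. All tested genes lower at that p numbered 175, 188, 796 (of 21829), 97 and 1981 in those settings, against 555 in the main one.

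Among 12 tested sensors and regulators of eIF2alpha 7 had lower means (median -0.07), close to the 59.2% of all tested genes, and 2 had an unadjusted p under 0.05, both lower, beside 4.43%. Eif2s1, the gene of eIF2alpha itself, had 12.4, 12.1 and 13.8 FPKM in the KO-labelled libraries against 16.6, 16.7 and 25.1 FPKM in WT, with WT 3 highest (difference -0.55, SE 0.17, limma adjusted p = 0.241). Eif2ak2, the kinase that responds to double-stranded RNA, had -0.26 (limma adjusted p = 0.351). Ern1, which encodes IRE1, was higher, at 8.09, 7.69 and 6.54 FPKM against 6.22, 6.36 and 4.41 FPKM in WT. These groups did not overlap, with a difference of 0.35 (SE 0.16, limma unadjusted p = 0.0621, adjusted p = 0.394). The count of 2 was 1 without KO 1, KO 3 or WT 1 and 0 without KO 2, where 188 of all 12539 tested genes were lower at that p. It was 3 with no filter on low values and 4 with sample weights, beside 796 of 21829 and 1981 of 12539 tested genes. The count was also 1 with a filter of 5 FPKM, median-ratio scaling, no trend, the replicate block and the length correction. It was 0 with the multiciliated covariate. All tested genes lower at that p numbered 511 (of 9213), 460 (of 12544), 531, 566, 512 and 97 in those settings, against 555 in the main one.

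**Figure D5:**
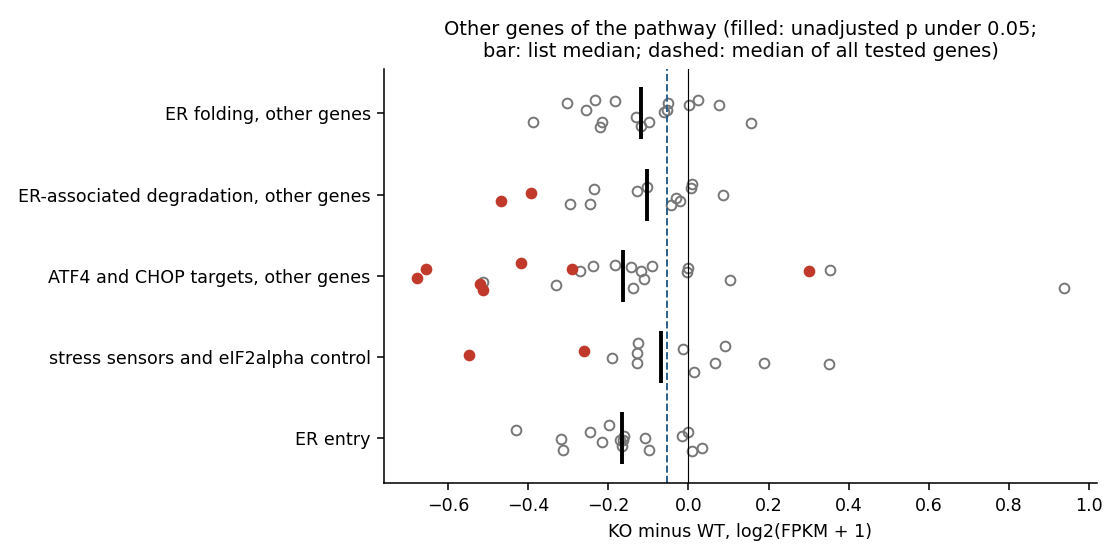
KO minus WT difference in log2(FPKM + 1) (x axis) of the other tested pathway genes, by list, with each list's median as a bar and the median of all tested genes, -0.05, dashed. Filled points have an unadjusted p under 0.05, and the ATF4 and CHOP targets hold 6 of them left of 0 and 1 right of it.

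Markers of other cell types moved with the groups, and their part in these differences was not tested. In bulk tissue, fewer cells of a type and less RNA per cell cannot be told apart. The 10 mature adipocyte markers summed to 29132 to 35655 FPKM in the KO-labelled libraries and 40770 to 75835 FPKM in WT, with 7 of 10 lower in every KO-labelled library, an order that 12.2% of all tested genes had. Cfd and Fabp4 had the largest values of these markers in every library. Both were highest in WT 3, the library with the highest FPKM sum and raised short transcripts. Plin1, Lipe and Lep overlapped between the groups. B and plasma cells, of which plasma cells are rich in chaperones and XBP1, had 8 markers that summed to 9.28 to 19.4 FPKM against 21.5 to 38.3 FPKM in WT, 4 of them lower in every KO-labelled library, beside the same 12.2%. The plasma cell gene Jchain had 6.77, 11.9 and 2.48 FPKM against 12.3, 21.4 and 20.7 FPKM in WT. Cd79b, Mzb1, Tnfrsf17 and Pou2af1 overlapped between the groups. Mzb1 had 1.556, 1.985 and 1.434 FPKM against 2.056, 5.006 and 1.803 FPKM in WT, with KO 2 above WT 3. Only 4 of the 8 markers had a mean of at least 1 FPKM.

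Epithelial and ciliated markers ran the other way. The 9 epithelial markers summed to 98 to 199.6 FPKM in the KO-labelled libraries against 8.24 to 84.8 FPKM in WT, and the 9 multiciliated markers to 37.2 to 81.6 FPKM against 0.756 to 29.5 FPKM, with WT 1 highest among WT in both. Foxj1, the master regulator of motile cilia, was listed at 0 in WT 3. All 6 markers of the caput epididymis were under 1 FPKM in every library. With the multiciliated score as a covariate, which is partly confounded with group, the difference was -0.42 for Xbp1, 0.49 for Herpud1, -0.15 for Hspa5, -0.01 for Atf4 and 0.03 for Ddit3. Macrophage, fibroblast, and immediate early and heat shock sums overlapped between the groups. The sum of the immediate early and heat shock genes ran from 212.7 to 259.8 FPKM in the KO-labelled libraries and from 166.2 in WT 3 to 332.3 FPKM in WT 2.

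The genes whose profile over the 6 libraries lay closest to that of Hspa5 were Ube2l3, Yipf5 and Bzw1, of 9076 other genes whose mean reached 5 FPKM, after predicted genes, RIKEN clones, miRNA genes and snoRNA genes were left out by name. Likeness was the mean absolute difference of centred log2(FPKM + 1), which was 0.013, 0.015 and 0.02. Ube2l3, a ubiquitin-conjugating enzyme gene, had 41.2, 41.8 and 40 FPKM in the KO-labelled libraries against 44.1, 43.1 and 47.3 FPKM in WT. The nearest of the other unfolded protein response genes ranked, Pdia4, was 1222nd by that measure, at 0.079. Profiles were not scaled to equal spread, so a gene that varied much more than Hspa5 ranked far from it whatever its shape. Trib3, whose mean was under 5 FPKM, was not ranked. Closest to Atf4 were Cdk2ap2, Atp6v1b2 and Gpbp1, at 0.021, 0.021 and 0.025. Pdia4 ranked 73rd and Hsp90b1 167th, while Ddit3 ranked 7465th, at 0.28.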

How the data were processed

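Gene-level values of 6 libraries were analysed, 3 labelled KO and 3 labelled WT. The authors deposited 1 column of values per library, read here as FPKM: no header names the unit, which was inferred from Cufflinks and Cuffdiff 2.2.1 (with STAR 2.5.4 and build mm10) in the submitters' processing notes and from values that are not whole. Per the labels' protocols, libraries were made with a stranded mRNA kit. The annotation, the scaling of library totals and the fragments per library are not stated in the labels or headers, so no counting intervals are given.

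Where a symbol had several of the 21853 rows (24 repeats, Ddit3 among them), the most abundant row was used. Genes whose mean reached 1 FPKM were transformed to log2(FPKM + 1) and fitted in limma 3.58.1 under R 4.3.3 (group as the only term, mean-variance trend, Benjamini-Hochberg adjustment over all tested genes, threshold 0.05). This scale understates changes of low genes. Exact permutation tests were two-sided, on FPKM. The fit was tested on simulated data. Positions and transcript lengths came from GENCODE vM21 on GRCm38, the assembly of mm10, and promoters from RefSeq.

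The members and lists were chosen with earlier results of these data known. Named genes were the 10 members, Zfp251, the 3 genes of smallest p in each pathway list and the 3 nearest profiles to Hspa5 and Atf4; markers and others are named beside a result. Alternatives were pseudocounts of 0.1 and 0.5, no filter, a filter of 5 FPKM, median-ratio and quantile scaling, no trend, sample weights, each library left out, a replicate block, a transcript length correction and a multiciliated covariate.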

Additional observations from a re-analysis of the deposited data

How the results depend on the processing

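No gene among the 10 passed the adjusted threshold except with sample weights, where Xbp1 (-0.50, limma adjusted p = 0.0497, range 0.0497 to 1 over its alternatives) and Herpud1 (0.57, limma adjusted p = 0.0475, range 0.0475 to 1) did. Hsp90b1, Dnajb9, Atf4, Xbp1 and Herpud1 kept their sign in all 17 settings. The sign turned with quantile normalization for Hspa5 (0.13), Calr (0.0040), Ube2l3 (0.018) and Bzw1 (0.0397). It turned for Trib3 with sample weights (0.0012), without KO 3 (0.036, range -0.14 to 0.036 with a library left out) and after the length correction (0.057). With the multiciliated covariate it turned for Pdia4 (0.049), Ddit3 (0.033), Atp6v1b2 (0.00032) and Gpbp1 (0.023). The causes were not tested.

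Genes past the adjusted threshold numbered 0 in the main setting, 1 with no filter, 970 with sample weights and 0 to 482 with a library left out (482 without WT 1). Genes at an unadjusted p under 0.05 numbered 974 under a filter of 5 FPKM, 3914 with sample weights, 166 with the covariate and 866 to 2195 with a library left out, and their share with higher values was 67.4% in the main setting and 56.2% with quantile normalization. Of the 10 genes, 1 had an unadjusted p under 0.05 in the main setting, beside 1700 of all 12539 tested genes. That count was 3 with no filter, beside 2445 of 21829, and 2 after the length correction, beside 1884 of 12539. With sample weights it was 6 and with the covariate 0, beside the 3914 and 166 given above. With a library left out it was 0 to 3 (0 without KO 1 or KO 2, 3 without WT 1). All tested genes at that p numbered 866 without KO 1, 882 without KO 2 and 1842 without WT 1. The count of genes lower in every KO-labelled library, added after its values were seen, was 2 with quantile normalization, 2 after the length correction and 5 to 8 with a library left out, which makes non-overlap easier. The folding minus ATF4 branch difference of 0.12 (pooled SD 0.12) was 0.25 (SD 0.22) under a filter of 5 FPKM, which drops Trib3. It was 0.28 (SD 0.21) with quantile normalization and 0.135 (SD 0.129) with a pseudocount of 0.1. It was -0.017 with sample weights, -0.0047 with the covariate and 0.029 to 0.18 with a library left out. Without KO 1 (0.15, SD 0.12) and without WT 1 (0.18, SD 0.13) it exceeded the SD, and with any other library left out it did not.

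The replicate numbers did not pair the libraries: deviations from the group means correlated at 0.228, -0.2 and 0.22 for numbers 1, 2 and 3 across genes, and KO 2 and KO 3 correlated best with another number. With the replicate block 2 of the 10 genes had an unadjusted p under 0.05, beside 1714 of all 12539 tested genes.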
